A study of Mus musculus with 8 samples.

Results

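The YAP and mechanosensing genes described here are 10 genes of the Hippo pathway and its neighbours: Ctgf (now Ccn2), Cyr61 (now Ccn1), Ankrd1, Yap1, Wwtr1, Tead1, Lats2, Amotl2, Piezo1 and Srf. They were set by name, with earlier results of these data known. Each was read from the probe set annotated to it alone, the one of highest mean over the 8 arrays where there were several, so that they are 10 of 19938 genes with such a probe set. All 10 were measured. The arrays held thymus lobe RNA from C57BL/6NTac mice, 8 weeks old, 4 of which had spent 13 days aboard the space shuttle on mission STS-118 (spaceflight) and 4 of which stayed on the ground in the same kind of enclosure module (ground control). Each array is 1 mouse, the strain and age are shared by both groups, and the delay between landing and dissection is not given in the sources used here. Values are log2 expression values as deposited, and every difference is spaceflight minus ground control.

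YAP (Yap1) and its relative TAZ (Wwtr1) are transcriptional coactivators that enter the nucleus when cells are spread, stretched or on stiff matrix, and are held in the cytoplasm when the Hippo kinases LATS1 and LATS2 phosphorylate them. In the nucleus they bind TEAD factors on DNA and switch on genes such as Ctgf, Cyr61 and Ankrd1, together with Lats2 and Amotl2, which feed back on YAP. SRF is the DNA-binding partner of the actin-regulated MRTF coactivators, a parallel route from the cytoskeleton to the nucleus, and Piezo1 is an ion channel opened by membrane tension. In most organs these genes are read mainly in stromal, endothelial, epithelial and muscle cells rather than in lymphocytes.

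The DNA elements read by TEAD and by SRF were looked up in RefSeq promoter windows (GRCm38.p6, 250 bases before to 50 after a transcript start), which held 8 of the 10 genes. TEAD binds the MCAT core, GGAATG or CATTCC on the opposite strand, and SRF binds the CArG box. Windows of 6 of these 8 genes held an MCAT core, against 16.6% of all 27025 genes with a window, and 1 of 8 held a CArG box, against 1.81% of all genes. The 250 bases before the start are shown for 2 target genes, Cyr61 and Ankrd1, and for Srf, because they hold the letters that TEAD or SRF is known to bind. Capitals mark the MCAT core in the first 2 and the CArG boxes in the third. Each is written 5′ to 3′ on the gene's strand.
Cyr61: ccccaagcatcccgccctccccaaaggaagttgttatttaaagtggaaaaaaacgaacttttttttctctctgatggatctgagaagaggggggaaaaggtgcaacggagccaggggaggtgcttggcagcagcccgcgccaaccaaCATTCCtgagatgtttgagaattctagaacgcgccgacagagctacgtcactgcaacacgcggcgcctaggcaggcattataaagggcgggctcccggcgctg
Ankrd1: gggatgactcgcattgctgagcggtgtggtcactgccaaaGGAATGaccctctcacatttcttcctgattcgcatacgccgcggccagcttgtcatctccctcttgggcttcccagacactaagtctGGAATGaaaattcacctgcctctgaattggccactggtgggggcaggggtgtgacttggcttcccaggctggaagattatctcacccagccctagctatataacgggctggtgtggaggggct
Srf: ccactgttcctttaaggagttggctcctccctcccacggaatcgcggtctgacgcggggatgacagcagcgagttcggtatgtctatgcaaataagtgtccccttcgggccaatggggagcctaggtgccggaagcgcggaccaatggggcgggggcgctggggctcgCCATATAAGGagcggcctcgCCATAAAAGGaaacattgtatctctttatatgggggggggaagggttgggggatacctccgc
The Cyr61 stretch is chr3:145649986-145650235, the Ankrd1 stretch chr19:36119845-36120094 and the Srf stretch chr17:46556163-46556412, all on the minus strand. In Cyr61 the MCAT core began 103 bases before the start, and in Ankrd1 the 2 copies began 210 and 123 bases before it. The CArG boxes of Srf began 82 and 62 bases before the start used here, which lies inside the annotated span of the gene. An MCAT core also began 141 bases before the start of Yap1 and 65 before that of Amotl2. A match is a description of the letters in this window and not evidence of binding.

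No member passed the test between groups. In limma over 28943 probe sets, 0 of 10 genes were at a Benjamini-Hochberg adjusted p under 0.05, where 0.0502% of all genes were (10 of 19938). None was at an unadjusted p under 0.05 either, where 10.1% of all genes were. The smallest adjusted p was 0.497, for Tead1. In every member the values of the groups overlapped, where 6.01% of all genes had groups that did not (1.73% wholly higher and 4.28% wholly lower after flight). The spaceflight mean was the lower in 9 of the 10, with Tead1 the exception, and the median difference was -0.22, against -0.018 over all genes. The median of the 10 was -0.098 without spaceflight replicate 1, -0.12 without ground-control replicate 3 and -0.029 without both. Leaving out both was chosen after seeing the data. These arrays held the lowest and the highest values of most of the 10 genes, so the upward move follows from that choice. Among the 4958 genes with means in the same range as the 10 (from 6.51 to 7.92), 77.6% had a lower spaceflight mean and the median difference was -0.13, or -0.056 without those 2 arrays. The direction of the 9 genes was thus also that of most genes at their level.

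**Figure D1:**
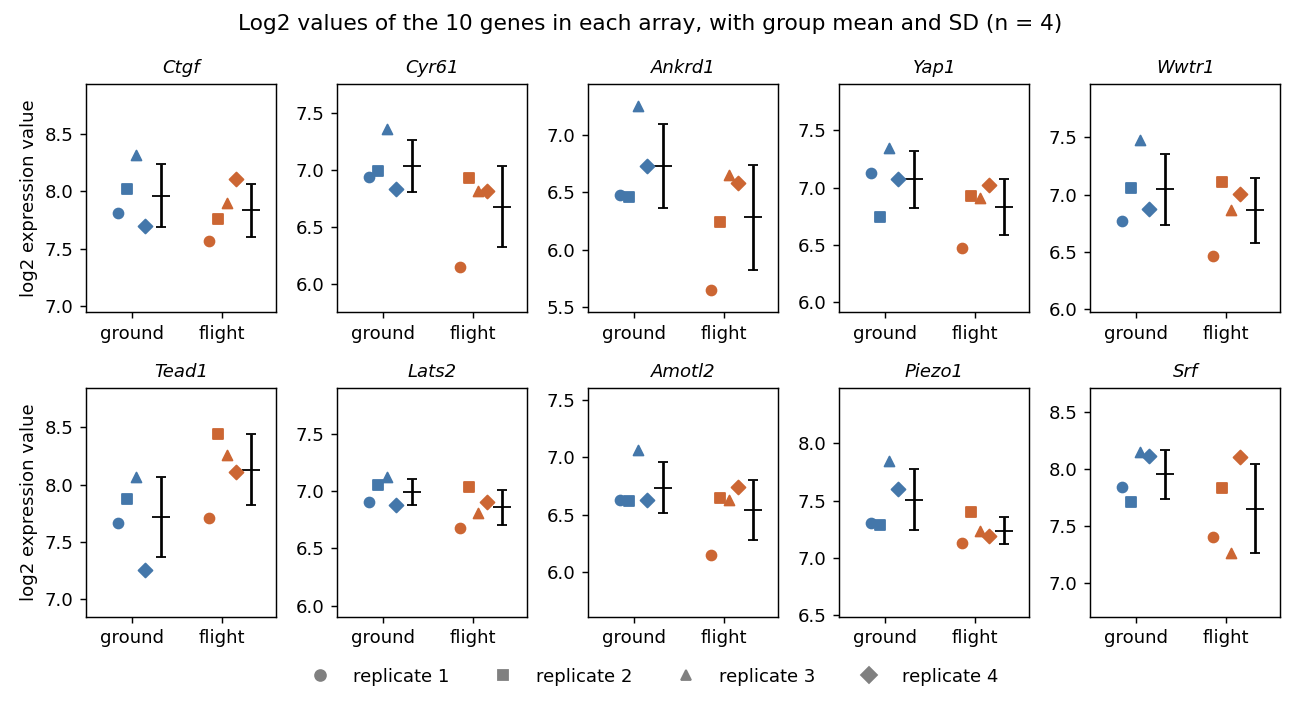
Log2 expression value of each of the 10 genes (vertical axis, every panel 2 log2 units high) in the 4 ground-control and 4 spaceflight arrays, with the symbol giving the replicate number and the bars the group mean and SD. The circle of spaceflight replicate 1 is the lowest point in 8 panels and the triangle of ground-control replicate 3 the highest in 9.

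The same 2 arrays were at the ends for nearly all members. Spaceflight replicate 1 was the lowest of the 8 arrays for 8 of 10 genes, and ground-control replicate 3 the highest for 9 of 10. Both held together for 8 genes, against 9.63% of all genes and 17.2% of genes in the same range of means. Several lists of markers of supporting and neighbouring tissues often had the same ends. Of 8 endothelial markers, ground-control replicate 3 was highest in 8 and spaceflight replicate 1 lowest in 5, and of 8 fat cell markers it was 6 and 7. For 8 fibroblast markers it was 5 and 6, for 8 striated muscle markers 6 and 6, for 8 smooth muscle and pericyte markers 3 and 4, and for 6 airway markers 3 and 5. The shares were 19.1% and 22.9% over all genes, and 30.6% and 38.6% among genes in the members' range of means. The smooth muscle and pericyte counts lay near the latter. The summed level of the 8 striated muscle markers was 10.46 in spaceflight replicate 1 and 11.62 to 12.31 in the other flown mice, against 11.67 to 12.47 on the ground (log2 of the sum of linear values). That of the 8 fibroblast markers was 10.73 in spaceflight replicate 1, 11.73 to 12.09 in the other flown mice and 11.37 to 12.14 on the ground. For the 6 airway markers it was 8.46, 11.99 to 12.82 and 12.28 to 13.49, and Scgb1a1, an airway secretory protein, read 3.78 in spaceflight replicate 1 and 10.65 to 12.56 in the other 7 arrays.

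The summed level of the 8 thymic epithelial markers was lower in all 4 flown mice. It was 11.04 to 11.56 after flight and 11.61 to 11.85 on the ground, so the groups did not overlap. Spaceflight replicate 1 was lowest in 2 of the 8 genes and ground-control replicate 3 highest in 4. Single values of Epcam, Krt8, Aire and Ly75 overlapped between groups, and Ly75 had the higher mean after flight (difference 0.023). The flight mean was lower in 7 of 8, with a median difference of -0.47, and 5 were lower at an unadjusted p under 0.05, where 7.0% of all genes were. None of the 8 passed the limma test over all genes. The 8 fat cell markers all had a lower flight mean as well, with a median difference of -0.61. Of these, 4 were lower at a limma unadjusted p under 0.05, and none passed. Their summed level overlapped, at 11.66 to 12.69 after flight and 12.54 to 12.97 on the ground. Foxn1, the master transcription factor of thymic epithelium, read 6.16 to 6.55 after flight and 6.91 to 7.06 on the ground (difference -0.63, limma adjusted p = 0.142), and is named after its values were seen. Of the 8 thymocyte markers, 7 were measured and all 7 had a lower flight mean, with a median difference of -0.15 and 0 at an unadjusted p under 0.05. Their summed level was 13.61 to 13.83 after flight and 13.80 to 13.93 on the ground. Among all genes with a mean log2 value of at least 6, 74.2% had a lower flight mean and the median difference was -0.11. The part of any of these cell types in the members' differences was not tested. In lobe RNA, fewer cells of a type and less RNA per cell cannot be told apart.

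**Figure D2:**
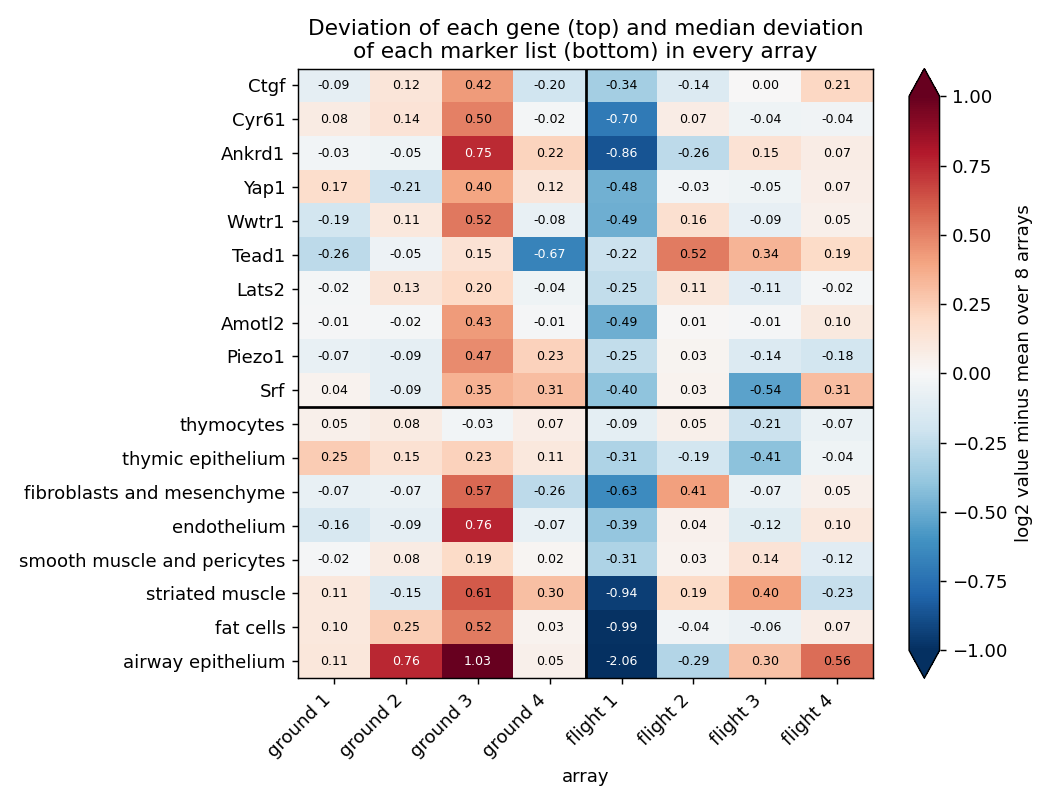
Deviation of each gene from its mean over the 8 arrays (upper block, log2) and the median deviation over each marker list (lower block), with ground-control arrays on the left, spaceflight arrays on the right and colours limited to ±1. Spaceflight replicate 1 is low and ground-control replicate 3 high for most of the 10 genes. The same holds for the fibroblast, endothelial, striated muscle, fat and airway markers. The median of the thymic epithelial markers is below 0 in all 4 flown arrays and above 0 in all 4 ground arrays.

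Array quality also varied. The interquartile range of all values was 2.43 in spaceflight replicates 1 and 3, against 2.68 to 2.95 in the other arrays, and spaceflight replicate 1 and ground-control replicate 3 were the least alike pair (r = 0.954 across probe sets). The members are therefore given with all arrays and with arrays left out. Without spaceflight replicates 1 and 3, the difference was -0.32 for Ankrd1, -0.21 for Piezo1, -0.16 for Cyr61 and -0.098 for Yap1. It was -0.043 for Amotl2, -0.027 for Ctgf, -0.022 for Lats2, 0.013 for Wwtr1, 0.020 for Srf and 0.56 for Tead1.

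The 2 coactivators had overlapping values in the groups. Yap1, the Hippo-regulated coactivator YAP, read 6.47, 6.93, 6.91 and 7.02 in spaceflight replicates 1 to 4 and 7.12, 6.74, 7.35 and 7.07 in ground-control replicates 1 to 4. Ground-control replicate 2 lay below 3 of the 4 flown mice. The means were 6.83 ± 0.25 and 7.07 ± 0.25 (SD, n = 4 each), a difference of -0.24 ± 0.16 (SE; 95% interval -0.59 to 0.11; limma adjusted p = 0.558). It was -0.12 without spaceflight replicate 1, -0.15 without ground-control replicate 3 and -0.028 without both. Wwtr1, which encodes TAZ, read 6.46, 7.11, 6.87 and 7.01 after flight and 6.77, 7.06, 7.48 and 6.88 on the ground. Leaving aside the lowest and the highest array, the 2 groups covered nearly the same range. Its difference was -0.18 ± 0.18 (95% interval -0.59 to 0.22; adjusted p = 0.688), and it was -0.050 without spaceflight replicate 1, -0.039 without ground-control replicate 3 and 0.094 without both.

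Tead1, a TEAD factor that carries YAP and TAZ to DNA, was the single member with a higher mean after flight. It read 7.71, 8.44, 8.26 and 8.11 in the flown mice and 7.66, 7.87, 8.07 and 7.25 in the ground mice. Spaceflight replicates 2 to 4 lay above all 4 ground mice, and spaceflight replicate 1 lay below ground-control replicates 2 and 3. The means were 8.13 ± 0.31 and 7.71 ± 0.35, a difference of 0.42 ± 0.20 (95% interval -0.022 to 0.86; unadjusted p = 0.0606, limma adjusted p = 0.497), or 1.34-fold. Its other probe set differed by 0.31 ± 0.17. Genes at its level had a median difference of -0.14, which lies outside that interval, as it did for none of the other 9. Without spaceflight replicate 1 the groups did not overlap, where 471 of 19938 genes lay wholly higher after flight. The difference of Tead1 was then 0.56 ± 0.19 (limma unadjusted p = 0.0139). The limma adjusted p was then 0.722, within a range of 0.34 to 0.858 over the alternatives, so that Tead1 passed under none of them. Without ground-control replicate 3 as well, a pair chosen after seeing the data, the difference was 0.68 ± 0.18 (limma unadjusted p = 0.00433). These were the lowest flown and the highest ground value of Tead1, so the rise follows from that choice. Without ground-control replicate 4, the lowest array, the difference was 0.26.

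The matricellular targets differed in size but not in test result. Ctgf, a secreted protein of the CCN family and a standard readout of YAP activity, read 7.56, 7.76, 7.90 and 8.11 after flight and 7.81, 8.02, 8.32 and 7.70 on the ground. The 2 groups were interleaved, with ground-control replicate 4 below 3 flown mice. The difference was -0.13 ± 0.16 (95% interval -0.49 to 0.23; adjusted p = 0.751), where the median was -0.14 among genes at its level. It was -0.039 without spaceflight replicate 1, -0.010 without ground-control replicate 3 and 0.081 without both, and -0.22 without either replicate 4. Cyr61, the other CCN protein, read 6.15, 6.93, 6.82 and 6.82 after flight and 6.94, 7.00, 7.36 and 6.84 on the ground. Spaceflight replicate 1 lay far below the other flown mice, which sat at the lower edge of the ground values. The difference was -0.35 ± 0.18 (95% interval -0.76 to 0.049; adjusted p = 0.508), and -0.18 without spaceflight replicate 1 or -0.071 without ground-control replicate 3 as well.

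Ankrd1, an ankyrin-repeat protein of muscle nuclei and sarcomeres as well as a YAP target, had the lowest difference of the 10. It read 5.65, 6.24, 6.65 and 6.58 after flight and 6.48, 6.46, 7.26 and 6.73 on the ground. Spaceflight replicates 3 and 4 lay above ground-control replicates 1 and 2, so the groups overlapped. The means were 6.28 ± 0.46 and 6.73 ± 0.37, a difference of -0.45 ± 0.24 (95% interval -0.98 to 0.082; adjusted p = 0.51), or 1.37-fold lower. It was -0.24 without spaceflight replicate 1, -0.28 without ground-control replicate 3 and -0.066 without both. Striated muscle markers had the same 2 arrays at the ends, each in 6 of 8 genes.

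The feedback genes Lats2 and Amotl2, a Hippo kinase and an angiomotin that holds YAP at cell junctions, also had overlapping values. Lats2 read 6.68, 7.04, 6.81 and 6.91 after flight and 6.91, 7.05, 7.13 and 6.88 on the ground, a difference of -0.13 ± 0.11 (95% interval -0.38 to 0.11; adjusted p = 0.631). This was the narrowest interval of the 10. Without spaceflight replicate 1 the difference was -0.075, without ground-control replicate 3 it was -0.089, and without both it was -0.030. Amotl2 read 6.15, 6.65, 6.63 and 6.74 after flight and 6.63, 6.62, 7.07 and 6.62 on the ground. With spaceflight replicate 1 and ground-control replicate 3 set aside, its other 6 values lay between 6.62 and 6.74. Its difference was -0.19 ± 0.16 (95% interval -0.54 to 0.15; adjusted p = 0.621). It was -0.064 without the first of those arrays, -0.084 without the second and 0.046 without both.

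Piezo1, the tension-gated channel, read 7.13, 7.40, 7.24 and 7.19 after flight and 7.30, 7.28, 7.85 and 7.60 on the ground. Spaceflight replicate 2 lay above ground-control replicates 1 and 2, and the other flown mice below all 4 ground mice. The difference was -0.27 ± 0.14 (95% interval -0.58 to 0.043; adjusted p = 0.51), and its other 2 probe sets differed by -0.31 ± 0.20 and -0.21 ± 0.13. The difference was -0.16 without ground-control replicate 3 and -0.12 without spaceflight replicate 1 as well. Srf, the MRTF partner, read 7.40, 7.84, 7.27 and 8.11 after flight and 7.84, 7.71, 8.15 and 8.11 on the ground. Here spaceflight replicates 1 and 3 were the low arrays, and replicates 2 and 4 lay within the range of the ground mice. The difference was -0.30 ± 0.19 (95% interval -0.72 to 0.12; adjusted p = 0.546). Leaving out spaceflight replicate 3 gave -0.17, leaving out replicate 4 gave -0.45, and leaving out replicates 1 and 3 gave 0.020.

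**Figure D3:**
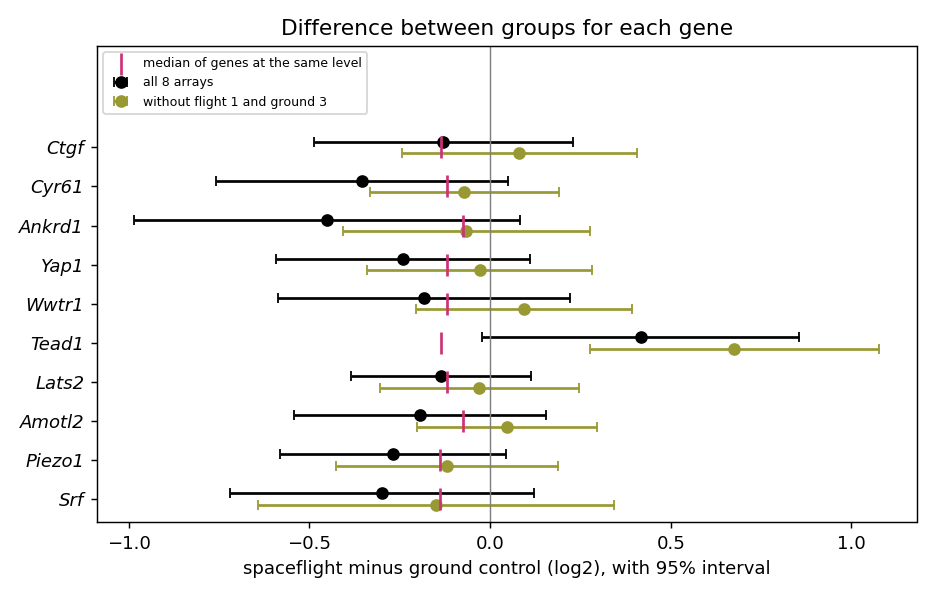
Spaceflight minus ground control (log2) with its 95% interval for each gene, from all 8 arrays (black) and without spaceflight replicate 1 and ground-control replicate 3 (olive), with a red tick at the median difference of genes at its level (10 equal groups of genes by mean). With all arrays each interval holds 0, and the interval of Tead1 is the one that does not hold its red tick.

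With all 8 arrays and no replicate block, all 10 intervals held 0, and the bound farthest from 0 was -0.98 for Ankrd1, so a 2-fold or larger change lay outside the 95% interval of each gene. For Tead1 this did not hold without spaceflight replicate 1 and ground-control replicate 3 (0.28 to 1.08) or when spaceflight replicates 1 and 3 were left out (0.081 to 1.04). Nor did it hold for Ankrd1 in some alternatives with a single array left out. Its difference was -0.58 ± 0.25 (SE) without spaceflight replicate 3 and -0.54 ± 0.26 without ground-control replicate 2. With all arrays the Ctgf interval reaches 1.40-fold lower and the Tead1 interval 0.86 on the log2 scale above 0.

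Other genes of the pathway were described from lists of known members, and 0 of the 105 measured genes in them passed over all genes tested. Another 4 list genes, Stk3, Actg1, Pkd2 and Ptk2, have no probe set of their own here. Of 20 further YAP and TAZ targets, 17 had a lower spaceflight mean. Over all genes 53.5% did, and 74.2% of those with a mean log2 value of at least 6. The median difference of the 20 was -0.080, which was -0.035 with 13 lower without ground-control replicate 3. The 3 of smallest p were Ajuba, a LIM protein that restrains LATS kinases, at -0.25 ± 0.11 (limma adjusted p = 0.486), the exchange factor gene Arhgef17 at -0.23 ± 0.11 and the matrix gene Ccdc80 at -0.57 ± 0.29. Ajuba was the single one whose groups did not overlap. It read 6.23 to 6.58 after flight and 6.66 to 6.80 on the ground, where 4.28% of all genes lay wholly lower after flight.

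Of 20 measured Hippo kinases and upstream regulators, 16 had a lower spaceflight mean, with a median of -0.097. At a limma unadjusted p under 0.05 were 3, all lower, where 7.0% of all genes were lower. Among genes in the members' range of means, 77.6% had a lower mean and 12.3% were lower at that p. Without spaceflight replicates 1 and 3, 11 were lower with a median of -0.012. They were Mob1b, a LATS coactivator, at -0.33 ± 0.11, Wwc1, the scaffold also called KIBRA, at -0.51 ± 0.21, and the angiomotin Amotl1 at -0.35 ± 0.16 (limma adjusted p from 0.445 to 0.486). Wwc1 read 6.90 in ground-control replicate 3 and 5.52 to 6.08 in the other 7 arrays, and its difference was -0.28 without that array. Among the 7 TEAD and VGLL genes beside Tead1, 5 were lower. Tead4 differed by -0.22 ± 0.10 and Tead3 by -0.17 ± 0.11, in the opposite direction to Tead1, and Vgll4, a TEAD antagonist, by -0.29 ± 0.14 (adjusted p from 0.497 to 0.547). Without spaceflight replicates 1 and 3, Tead4 differed by -0.18, Tead3 by -0.063 and Vgll4 by -0.044. Whether Tead1 differs from its relatives was not tested.

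All 17 measured cytoskeletal targets of SRF had a lower spaceflight mean, with a median of -0.29, or -0.17 without spaceflight replicate 1 and -0.19 without ground-control replicate 3. Of the 17, 5 were lower at an unadjusted p under 0.05, where 7.0% of all genes and 12.3% of genes in the members' range of means were, and 2 lay wholly lower after flight, where 4.28% of all genes did. Cnn1, the smooth muscle actin-binding protein calponin, read 5.94, 5.85, 6.32 and 6.28 after flight and 6.79, 6.70, 6.84 and 6.65 on the ground. Every flown mouse lay below every ground mouse. The difference was -0.64 ± 0.13 (95% interval -0.93 to -0.36; unadjusted p = 0.000483), but the limma adjusted p was 0.194, with a range of 0.13 to 0.839 over the alternatives, and it did not pass. It was -0.56 without spaceflight replicate 1 and ground-control replicate 3. Tpm4, a tropomyosin, read 8.30 to 8.79 after flight and 8.95 to 9.12 on the ground (difference -0.42 ± 0.13, adjusted p = 0.396). Acta2, smooth muscle actin, read 7.50, 9.04, 9.56 and 9.39 after flight and 9.36, 9.99, 10.48 and 9.88 on the ground. Its difference of -1.05 ± 0.41 (adjusted p = 0.462) became -0.59 without spaceflight replicate 1, and the whole list's median became -0.099 without that array and ground-control replicate 3. The summed level of 8 smooth muscle and pericyte markers was 9.64 in spaceflight replicate 1, 10.06 to 10.20 in the other flown mice and 10.10 to 10.51 on the ground. The part of these cells in the list's values was not tested.

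The SRF cofactors lay near 0, with a median of -0.058 over 6 genes. Elk3, of the ternary complex factors, differed by -0.21 ± 0.13, Elk4 by -0.058 ± 0.11 and Elk1 by 0.047 ± 0.091 (limma adjusted p from 0.546 to 0.842). Without spaceflight replicates 1 and 3, the difference of Elk3 was -0.0036. Of 10 immediate early targets of SRF, 7 were lower. Egr2, a zinc finger factor induced by receptor signals, read 6.59, 6.95, 6.58 and 7.17 after flight and 7.19 to 7.26 on the ground. The groups of Egr2 did not overlap, where 4.28% of all genes lay wholly lower after flight, and its low arrays were spaceflight replicates 1 and 3. Its difference was -0.40 ± 0.14 (adjusted p = 0.445), and -0.17 without those 2. The nuclear receptor Nr4a1 differed by -0.37 ± 0.20 and the phosphatase Dusp5 by -0.17 ± 0.10. Without spaceflight replicates 1 and 3, Nr4a1 was at 0.015 and Dusp5 at -0.10.

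Among 9 measured mechanosensitive channels beside Piezo1, 6 were lower with a median of -0.095, which was -0.0056 without ground-control replicate 3. Tmem63b, a channel opened by membrane stretch, differed by -0.39 ± 0.13 (limma adjusted p = 0.436). The potassium channel Kcnk4 differed by 0.30 ± 0.18, and by -0.0020 without spaceflight replicates 1 and 3. Trpc6 was dim, with means of 5.06 after flight and 5.23 on the ground. It differed by -0.17 ± 0.15, and by -0.012 without ground-control replicate 3. Of 16 genes of adhesion and nuclear force transmission, 13 were lower with a median of -0.17, or 10 with a median of -0.10 without spaceflight replicate 3. Among all genes with a mean of at least 6, 74.2% were lower with all arrays. The fibronectin receptor subunit Itga5 differed by -0.37 ± 0.14, Itgav by -0.34 ± 0.13 and the kinase Src by -0.24 ± 0.10 (adjusted p from 0.46 to 0.481). The groups did not overlap for 2 of the 16, Itga5 and Src, where 4.28% of all genes lay wholly lower after flight. Src read 6.57 to 6.84 after flight and 6.85 to 6.95 on the ground, a gap smaller than the spread within either group.

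**Figure D4:**
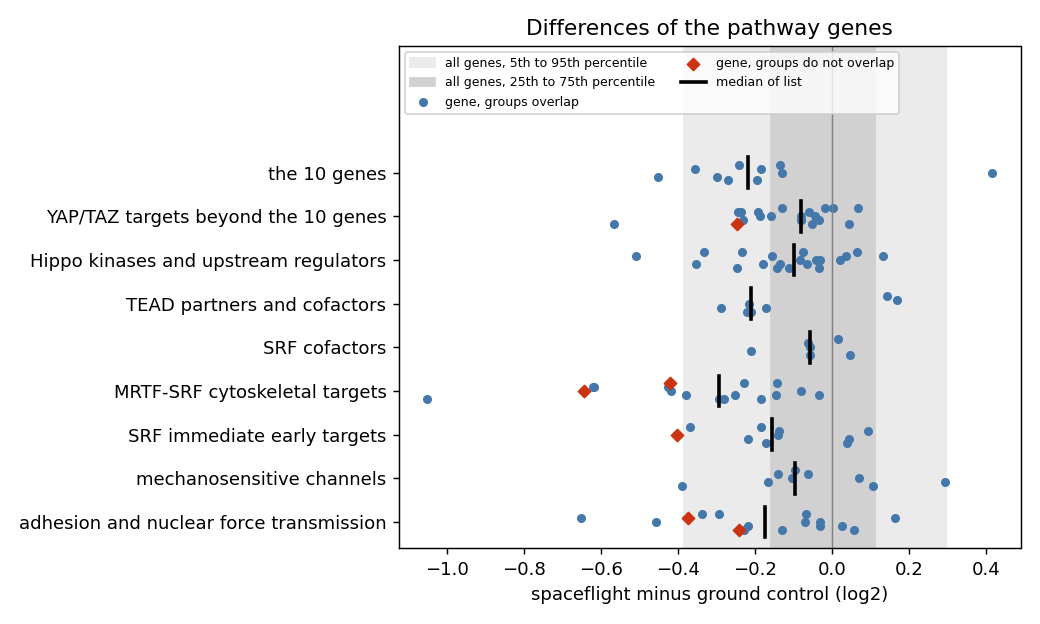
Spaceflight minus ground control (log2, horizontal axis) for every measured gene of the 10 and of the 8 pathway lists, with a black bar at each median, red diamonds for genes whose groups do not overlap, and grey bands for the middle of all genes. Most points lie left of 0, the cytoskeletal SRF targets with a median of -0.29, and Tead1 is the point of the 10 genes at 0.42.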

How the data were processed

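Thymus RNA of 8 mice was measured on Affymetrix arrays, 1 per mouse. Per the labels' protocols, RNA was extracted with Trizol and 6 µg was made into biotin-labelled cRNA. The table deposited by the authors holds log2 expression. RMA, which corrects background, equalises array distributions and summarises probes, and limma are named in the submitters' processing notes. Among the probe sets tested, interquartile ranges still ran from 2.43 to 2.95, so the distributions used here were not equal. The median difference also varied with level. It was 0.11 among genes with means of 3.97 to 4.72 and -0.14 among those of 7.26 to 7.87. Versions, filters and build are not given in the sources used here. RMA compresses differences of dim probe sets, and the values hold no detection calls.

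Of 35557 probe sets, the lowest run of identifiers (6614, no gene annotated) was taken as controls and left out. The other 28943 were fitted in R 4.3.3 with limma 3.58.1 (lmFit, eBayes, two-sided, 4 against 4 arrays, Benjamini-Hochberg over all, threshold 0.05). Probe sets with 1 gene numbered 21789, with several 1621 and with none 5533. Symbols were updated through Entrez identifiers (RefSeq, GRCm38.p6). The same-level median is over genes in the same of 10 equal groups by mean. Text names the 10 members and the 3 genes of smallest p in each of 8 pathway lists. Members and lists were chosen with earlier results of these data known. The fit was tested on simulated data. The number of arrays limits precision.

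Same-numbered mice share a number in the labels, not a stated pairing. Alternatives were a replicate block, each array left out, other array sets, weights, centring, quantile normalization, a filter on dim probe sets, another variance prior and the mean over probe sets.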

Additional observations from a re-analysis of the deposited data

Results flagged for a closer look

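A single array stood apart within its group of 4 in 6 of the 68 groups examined (34 genes, 2 groups each), by the gap to its neighbour relative to the group's range. Chance puts about 1 in 20 groups there, and the genes share arrays, so the 6 are not independent. Each was spaceflight replicate 1 as the lowest or ground-control replicate 3 as the highest. In spaceflight replicate 1, Cyr61 was 6.15 against 6.82 to 6.93 in the other flown mice, Ajuba was 6.23 against 6.54 to 6.58, and Tpm4 was 8.30 against 8.71 to 8.79. In ground-control replicate 3, Amotl2 was 7.07 against 6.62 to 6.63 in the other ground mice, the orphan nuclear receptor Nr4a1 was 9.28 against 8.96 to 9.00, and the cation channel Trpc6 was 5.69 against 5.05 to 5.10.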

How the results depend on the processing

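Over 17 alternatives, 165 of 170 values of the 10 genes kept their sign and 0 passed at an adjusted p under 0.05 (smallest 0.235, Srf without spaceflight replicate 4). The signs that turned came without spaceflight replicate 1 and ground-control replicate 3, an alternative chosen after seeing the data (Ctgf 0.081, Wwtr1 0.094, Amotl2 0.046), and without spaceflight replicates 1 and 3 (Wwtr1 0.013, Srf 0.020). The median of the 10 was then -0.029 and -0.035, and -0.29 to -0.098 when single arrays were left out. With single arrays left out, 0 to 2 members lay wholly lower after flight, where 5.03% to 9.6% of all genes did. Wholly higher were 0 to 1 members, where 461 to 949 of 19938 genes were. Without either pair 1 member was wholly higher, Tead1. The genes wholly higher then numbered 1485 without spaceflight replicates 1 and 3, and 754 without spaceflight replicate 1 and ground-control replicate 3. Without spaceflight replicates 1 and 3 list medians were -0.063 (TEAD and VGLL genes), 0.026 (SRF cofactors), -0.026 (immediate early targets) and -0.047 (adhesion). Without spaceflight replicate 1 and ground-control replicate 3 the TEAD list was at -0.11. Centring on the 75th percentile gave -0.13 for the TEAD list and 0.021 for SRF cofactors, which repeated quantile normalization put at 0.0078. Leaving out single arrays gave -0.21 to -0.13 for the TEAD list and -0.077 to 0.016 for SRF cofactors, -0.17 to -0.035 for the further YAP and TAZ targets, -0.16 to -0.066 for the Hippo list, -0.40 to -0.17 for the cytoskeletal SRF targets and -0.12 to -0.0056 for the channels. Centring on the 75th percentile gave -0.0019 with 12 of 20 lower for the YAP and TAZ targets, -0.019 for the Hippo list and -0.016 for the channels. Over all genes, 0 to 15 were called under the alternatives, against 10, and 2 without spaceflight replicate 1 and ground-control replicate 3. The replicate block, whose numbers gave correlations of deviations from -0.40 to 0.25, called 0 genes in place of 10. Under it 2 intervals did not hold 0. That of Ankrd1 was -0.80 to -0.10 around -0.45 (limma unadjusted p = 0.0175, limma adjusted p = 0.58; adjusted range over alternatives 0.296 to 0.998). That of Tead1 was 0.046 to 0.79 around 0.42 (limma unadjusted p = 0.0322, limma adjusted p = 0.58). Over all alternatives 0 to 2 members were at a limma unadjusted p under 0.05. Of 19938 genes, 932 to 3259 were, or 1350 of 10793 with the filter on dim probe sets.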
